A study of Mus musculus with 20 samples.

Results

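Glutathione S-transferases (GSTs) are the cytosolic enzymes that join glutathione to electrophiles such as lipid aldehydes, epoxides and drug metabolites, so that these can be exported from the cell. The 10 genes described here were taken by symbol from the deposited table of 38924 mouse genes: Gsta1, Gsta2, Gsta3 and Gsta4 of class alpha, Gstm1, Gstm2, Gstm3 and Gstm6 of class mu, Gstp1 of class pi and Gstt1 of class theta. All 10 were present on 1 row each and all 10 passed the filter on low values, as did 14524 genes in all. Gsta1 passed through the livers of mice fed the choline-deficient diet, since its level was above 0.5 FPKM (fragments scaled to the length of the gene and to the fragments of the library) in 2 of the 10 control-diet livers.

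Liver RNA came from 4 groups of 5 male mice, with 1 library from each mouse. WT mice (C57BL/6J, labelled C57/BL6) and TSP-1 null mice, which carry a knockout of the thrombospondin 1 gene Thbs1 in every cell and were bought as a line, were 5 weeks old at purchase and were acclimated for 1 week. They were then fed for 12 weeks either a control diet (groups NDWT and NDKO) or CDAHFD, a high fat diet of defined amino acids that lacks choline, holds little methionine and produces steatohepatitis and fibrosis in mice (groups HFWT and HFKO). The 20 libraries held 15641545 to 23276322 fragments assigned to genes, and 3 fragments on a gene of 1 kb corresponded to 0.129 to 0.192 FPKM. No 2 libraries of a group agreed within sampling noise.

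Thbs1 went against the genotype labels. Its mean was 0.197 ± 0.103 (NDWT), 1.30 ± 0.390 (NDKO), 4.62 ± 1.22 (HFWT) and 3.44 ± 0.547 FPKM (HFKO) (SD, n = 5 for every group mean given here). Single livers ran from 0.058 to 0.326 FPKM, 0.986 to 1.90, 3.46 to 6.10 and 3.05 to 4.398 in that order, so that the genotypes overlapped on CDAHFD and stood apart on control diet. The transcript was therefore higher, not lower, in the control-diet livers labelled TSP-1 null (log2 fold change, log2FC, 2.28, FDR 1.02e-05) and did not pass the test between genotypes on CDAHFD (log2FC -0.39, FDR 0.408). Reads from outside the deleted part of the gene and an exchange of labels cannot be told apart by gene-level values, so the genotype is given below as labelled.

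The livers were rich in hepatocyte transcripts in all groups, and every one of the 11 hepatocyte markers was present. The sum of these markers ran from 40440 to 46994 FPKM in NDWT livers, 45197 to 53228 for NDKO, 29994 to 42285 for HFWT and 38168 to 49565 for HFKO. On CDAHFD 3 (WT) and 6 (TSP-1 null) of the 11 were called lower and none higher, where 4.62% and 4.00% of all tested genes were called lower. With median-of-ratios scaling 10 and 8 of the 11 were called lower, beside 2242 and 1981 of the 14524 tested genes. With quantile normalization 1 and 2 of the 11 were called lower, beside 2562 and 2186 of the tested genes. Several marker groups of other cells were higher on CDAHFD. Called higher were 11 (WT) and 10 (TSP-1 null) of 11 stellate markers, 9 and 9 of 10 lymphocyte markers and 4 and 4 of 4 tested neutrophil markers. Of all tested genes 44.1% (WT) and 41.9% (TSP-1 null) were called higher. With median-of-ratios scaling 9 and 8 stellate, 8 and 5 lymphocyte and 4 and 4 neutrophil markers were called higher. With quantile normalization the numbers were 9 and 8, 6 and 1, and 3 and 3, with 1 lymphocyte marker called lower in TSP-1 null livers. Of all tested genes, these scalings called 3299 and 3225, and 2514 and 2421, higher. The 11 cholangiocyte markers summed to 18.7 to 25.1 FPKM over the 10 control-diet livers and 198 to 519 over the 10 CDAHFD livers, and the 10 macrophage markers summed to 170 to 297 against 640 to 1406. Of these 10 macrophage markers 7 (WT) and 8 (TSP-1 null) were called higher, and 1 was called lower in each genotype. Of 10 endothelial markers 3 (WT) and 4 (TSP-1 null) were called higher, and of 5 erythroid markers none was higher and 1 and 2 were called lower. In WT, median-of-ratios scaling and quantile normalization each called no endothelial marker higher and 4 lower. In TSP-1 null livers 1 and 2 endothelial markers were called higher under these scalings. In whole liver, fewer cells of a type and less RNA per cell cannot be told apart, and the part that cell makeup had in the GST values was not tested.

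GSTs act as dimers, and the classes differ in the compounds they handle. Alpha enzymes reduce lipid hydroperoxides, and Gsta4 is specialised for 4-hydroxynonenal, an aldehyde formed when membrane lipids are oxidised. Mu enzymes conjugate epoxides and quinones, the pi enzyme is the main GST of the male mouse liver, and theta enzymes act on small halogenated compounds. Many alpha and mu genes are known to be switched on by NRF2 (Nfe2l2), which binds the antioxidant response element together with small Maf proteins and is held back by KEAP1, and by the drug-sensing receptors CAR, PXR and AHR.

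The genes lie in clusters, on mouse genome GRCm38. Gsta4 (ENSMUSG00000032348.5, chr9:78191966-78209348, plus strand), Gsta1 (ENSMUSG00000074183.3, chr9:78230656-78242684, plus strand) and Gsta2 (ENSMUSG00000057933.4, chr9:78331018-78355788, minus strand) are neighbours, whereas Gsta3 (ENSMUSG00000025934.9, chr1:21240589-21265361, plus strand) stands elsewhere. The mu genes Gstm6 (ENSMUSG00000068762.5, chr3:107938847-107943749), Gstm3 (ENSMUSG00000004038.8, chr3:107942333-107969283), Gstm2 (ENSMUSG00000040562.6, chr3:107981702-107986453) and Gstm1 (ENSMUSG00000058135.6, chr3:108012255-108017973) follow each other on the minus strand. Gstp1 (ENSMUSG00000060803.4, chr19:4035411-4037912) and Gstt1 (ENSMUSG00000001663.4, chr10:75783813-75798584) are also on the minus strand.

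Promoter windows were available from RefSeq (GRCm38.p6) for 9 of the 10 genes, and 4 are printed here 5′ to 3′ as the 250 bases before the transcription start, because they belong to the 2 genes whose levels became alike on CDAHFD and to the 2 genes with a match to a searched motif. Gsta1 and Gsta2 had the most alike windows of any pair of these 9 genes, Gsta4 having no window (184 identical positions in an alignment of 261 columns, 70.5%). They share a run of 29 bases, in capitals in the first 2 sequences. The antioxidant response element core TGACNNNGC, searched on both strands, was found in 1 of the 9 genes, Gsta3, where it is in capitals, and in 11.5% of all 27025 genes with a window. The AP-1 and Maf type site TGANTCA was found in 1 of the 9, Gstp1, also in capitals, and in 7.82% of all genes. These 2 motifs can overlap, and neither printed match was a match to both.
Gsta1 (chr9:78230419-78230668, plus strand): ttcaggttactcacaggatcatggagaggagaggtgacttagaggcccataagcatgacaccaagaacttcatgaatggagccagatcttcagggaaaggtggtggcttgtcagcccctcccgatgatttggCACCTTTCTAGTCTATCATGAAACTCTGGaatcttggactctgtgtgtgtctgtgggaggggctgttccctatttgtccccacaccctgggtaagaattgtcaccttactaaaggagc
Gsta2 (chr9:78347146-78347395, minus strand): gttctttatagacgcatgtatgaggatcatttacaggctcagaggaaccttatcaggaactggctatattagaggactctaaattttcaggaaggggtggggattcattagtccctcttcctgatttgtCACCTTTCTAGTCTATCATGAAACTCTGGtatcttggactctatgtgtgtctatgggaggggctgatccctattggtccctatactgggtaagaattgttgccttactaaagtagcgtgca
Gsta3 (chr1:21240335-21240584, plus strand): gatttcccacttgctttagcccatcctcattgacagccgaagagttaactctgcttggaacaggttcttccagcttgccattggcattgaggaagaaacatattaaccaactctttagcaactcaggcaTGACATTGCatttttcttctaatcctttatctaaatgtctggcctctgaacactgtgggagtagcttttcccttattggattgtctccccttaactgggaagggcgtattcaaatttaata
Gstp1 (chr19:4037913-4038162, minus strand): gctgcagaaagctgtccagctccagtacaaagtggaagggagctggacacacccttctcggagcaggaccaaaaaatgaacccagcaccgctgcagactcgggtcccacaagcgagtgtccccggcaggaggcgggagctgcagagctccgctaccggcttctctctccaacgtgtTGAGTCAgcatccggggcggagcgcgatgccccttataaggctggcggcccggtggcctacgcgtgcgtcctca

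The shared run lay 118 to 90 bases before the start of Gsta1 and 121 to 93 bases before that of Gsta2. The Gsta3 match lay 121 to 113 bases, and the Gstp1 match 74 to 68 bases, before the start. A match is only a description of these letters, and a window without one says nothing of sites elsewhere.

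Likeness between the genes extends to their transcripts and bears on how reads were assigned. Of the stretches of 31 bases in Gsta1 transcripts, 92.9% also occurred in another gene, mostly Gm3776 (80.3%), Gsta2 (56.6%) and Gm10639 (47.5%), and 68.4% of its stretches of 150 bases, the read length, did so. For Gsta2 these shares were 60.7% and 19.6%, and for Gstp1, which shares sequence with Gstp2, 38.5% and 17.6%. The values of Gsta1 in particular are therefore uncertain as values of 1 gene. Shared 150-base stretches made up 3.44% of Gstm3 and 0% of Gstm1 and Gsta4. In the deposited coordinates the spans of Gstm3 and Gstm6 overlap by 1417 bases on the same strand.

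The livers of mice fed control diet had a GST profile led by Gstp1. Mean levels ran from 1125 ± 361 FPKM for Gstp1 through 377 ± 65.5 for Gsta3, 231 ± 37.9 for Gstm1 and 110 ± 16.04 for Gstt1 in NDWT, and Gsta1 stood lowest at 0.429 ± 0.277 FPKM, or 3 to 17 fragments per library. The order of these 5 genes was the same in NDKO. On CDAHFD the order changed in both genotypes, with Gstm1 first, Gstp1 next, then Gsta3 and Gstm3, and Gstm6 last.

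**Figure D1:**
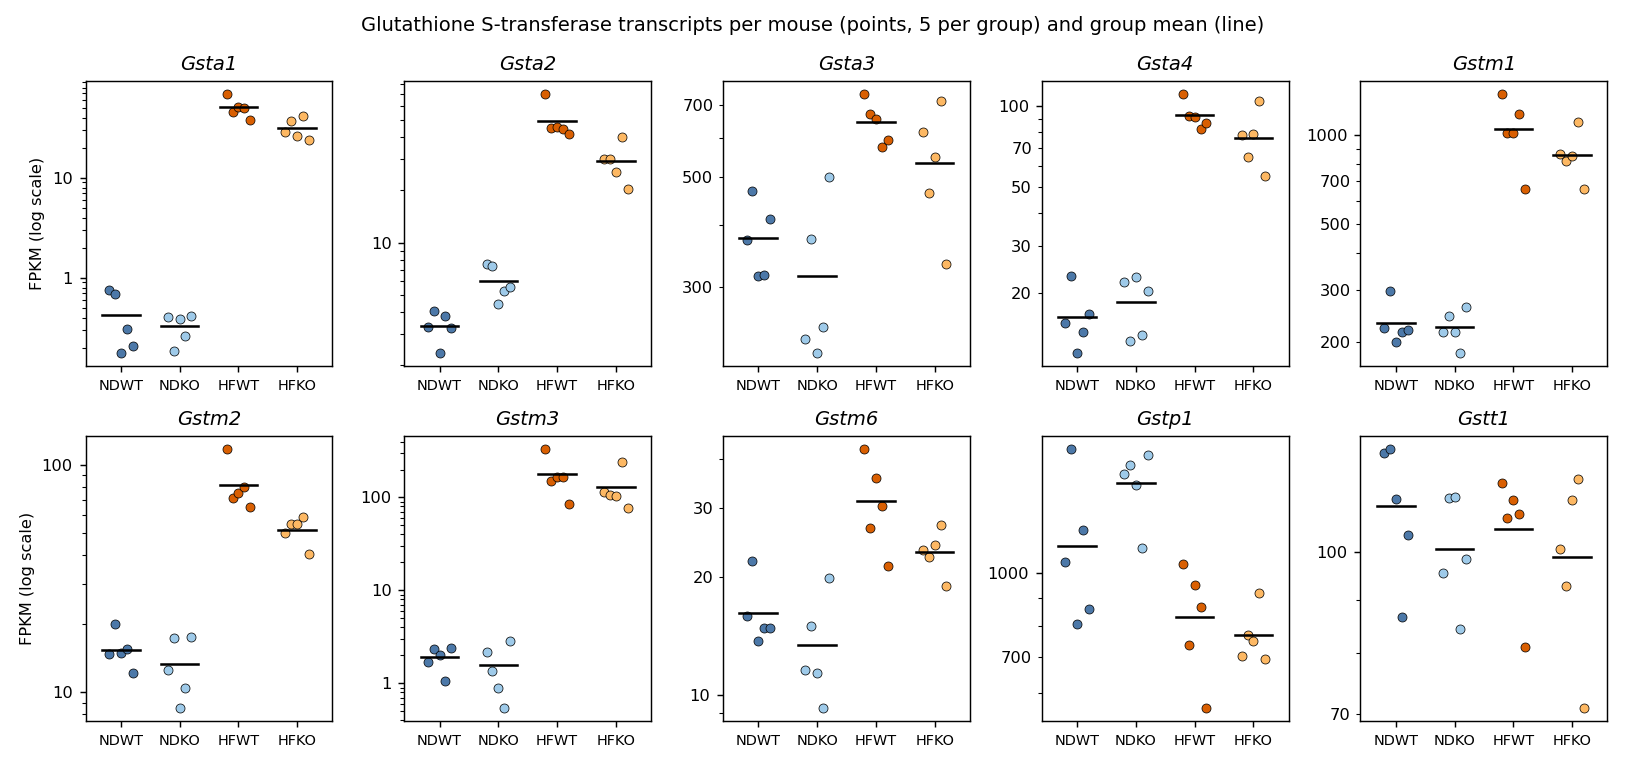
FPKM of each of the 10 GST genes (vertical axes, log scale, different for each gene) in every mouse, with 5 points for each of the groups NDWT, NDKO, HFWT and HFKO and a line at the group mean. Gsta1, Gsta2, Gsta4, Gstm1, Gstm2 and Gstm3 stand apart between the diets in both genotypes, while all groups overlap for Gstt1.

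The question of the diet comparison was which genes respond to CDAHFD in each genotype. In WT livers 8 of the 10 genes rose and none fell, where 48.8% of all tested genes were called, 44.1% higher and 4.62% lower. In TSP-1 null livers 8 rose and 1, Gstp1, fell, where 45.9% of tested genes were called, 41.9% higher and 4.00% lower. A gene was called (a DEG) at an FDR below 0.05 and a log2FC beyond 0.58 in size, from limma on log2(FPKM + 0.1) with Benjamini-Hochberg adjustment over all tested genes. Gsta1 is counted here although it had to differ, having passed the filter through its CDAHFD livers. For the 10 genes the log2FC had a median of 2.27 (WT) and 1.96 (TSP-1 null), against 0.53 and 0.50 for the 14524 genes. Values below are on the deposited FPKM scale, on which the median gene itself lay higher on CDAHFD by those amounts.

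Gsta1 was nearly silent on control diet. Its 5 NDWT livers held 0.764, 0.689, 0.176, 0.305 and 0.210 FPKM and its 5 NDKO livers 0.405, 0.184, 0.392, 0.262 and 0.414 FPKM. In HFWT the levels were 69.1, 45.6, 51.2, 50.03 and 37.9 FPKM, and in HFKO 28.5, 37.3, 26.1, 41.2 and 24.0 FPKM. Every CDAHFD liver thus lay far above every control-diet liver, and the 2 genotypes overlapped within each diet. The mean was 118 times higher on CDAHFD in WT and 94.8 times higher in TSP-1 null livers. These folds are a description with no test, because the filter let the gene in through those livers, and they rest on control-diet levels of 3 to 17 fragments per library. The log2FC of 6.72 in WT ran from 5.17 to 7.07 over the other settings tried, and that of 6.197 in TSP-1 null livers from 4.58 to 6.56.

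Gsta2, the close relative of Gsta1 whose promoter window is printed above, was the 1 gene of the 10 whose 4 groups did not overlap at all. It measured 3.32, 4.07, 2.34, 3.81 and 3.28 FPKM in NDWT and 7.53, 7.37, 4.45, 5.32 and 5.59 FPKM in NDKO. On CDAHFD it measured 70.1, 44.7, 45.6, 44.3 and 41.7 FPKM in HFWT and 30.02, 29.7, 25.1, 39.9 and 20.2 FPKM in HFKO. The order was thus NDWT, NDKO, HFKO, HFWT, with the libraries labelled TSP-1 null above WT on control diet and below WT on CDAHFD. Gsta2 rose 14.6 times in WT (log2FC 3.83, SE 0.19, FDR 2.99e-12) and 4.79 times in TSP-1 null livers (log2FC 2.23, SE 0.19, FDR 4.43e-09).

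Gsta1 and Gsta2 reached nearly equal levels on CDAHFD from unequal levels on control diet. The ratio of Gsta1 to Gsta2 FPKM in the same liver averaged 0.124 ± 0.0728 (NDWT) and 0.0580 ± 0.0242 (NDKO) on control diet, and 1.03 ± 0.0935 (HFWT) and 1.09 ± 0.125 (HFKO) on CDAHFD. The shared transcript sequence described above limits how exactly this ratio can be read.

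Gsta4, the enzyme for 4-hydroxynonenal, rose in both genotypes. It held 15.5, 23.3, 11.9, 14.3 and 16.7 FPKM in NDWT and 111, 91.9, 90.9, 82.1 and 86.4 FPKM in HFWT. Levels in NDKO were 22.1, 13.3, 22.9, 13.9 and 20.3 FPKM, and those in HFKO 77.9, 64.9, 78.6, 105 and 54.9 FPKM. The diets stood fully apart while the genotypes overlapped on each diet. The log2FC was 2.52 in WT (SE 0.19, FDR 6.47e-10) and 2.04 in TSP-1 null livers (SE 0.19, FDR 1.42e-08).

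Gsta3, the abundant alpha enzyme that in mice detoxifies aflatoxin epoxide, moved least in its class. NDWT livers held 373, 470, 316, 317 and 411 FPKM and HFWT livers 738, 671, 656, 577 and 597 FPKM, which did not overlap. NDKO livers held 235, 376, 220, 249 and 501 FPKM and HFKO livers 617, 464, 549, 715 and 334 FPKM, which overlapped. Its log2FC of 0.79 in each genotype (FDR 0.00243 in WT and 0.00252 in TSP-1 null) passed the test on deposited FPKM, but it was 0.26 and 0.29 above the median gene, and the call was lost with a median-of-ratios scaling, where it was 0.23 and 0.26.

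Gstm3 was the mu gene with the widest range. Control-diet levels were 1.70, 2.37, 2.02, 1.05 and 2.41 FPKM in NDWT and 2.19, 1.36, 0.883, 0.539 and 2.84 FPKM in NDKO. On CDAHFD they were 333, 149, 168, 166 and 85.6 FPKM in HFWT and 115, 105, 104, 242 and 76.7 FPKM in HFKO. The lowest CDAHFD liver was far above the highest control-diet liver, and the spread within each CDAHFD group was wide, with mouse 1 highest in HFWT and mouse 4 highest in HFKO. The mean was 94.6 times higher in WT (log2FC 6.41, SE 0.40, FDR 5.05e-11) and 82.3 times higher in TSP-1 null livers (log2FC 6.36, SE 0.40, FDR 7.68e-11).

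Gstm1, the most abundant mu enzyme of the liver, became the most abundant of the 10 genes on CDAHFD. It measured 223, 297, 199, 217 and 220 FPKM in NDWT and 1381, 1017, 1022, 1185 and 657 FPKM in HFWT. It measured 216, 244, 215, 183 and 263 FPKM in NDKO and 864, 816, 851, 1108 and 661 FPKM in HFKO. The diets did not overlap and the genotypes overlapped on each diet, and the log2FC was 2.16 in WT (SE 0.17, FDR 1.06e-09) and 1.93 in TSP-1 null livers (SE 0.17, FDR 6.12e-09).

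Gstm2, another mu enzyme of the same gene cluster, followed a like course at a lower level. NDWT livers held 14.7, 19.9, 14.8, 15.4 and 12.2 FPKM and NDKO livers 12.6, 17.4, 8.51, 10.5 and 17.5 FPKM. HFWT livers held 118, 71.9, 75.0, 79.8 and 65.1 FPKM and HFKO livers 50.1, 54.8, 54.8, 58.9 and 40.5 FPKM. On CDAHFD every liver labelled TSP-1 null lay below every WT liver, and on control diet the genotypes overlapped. The diet log2FC was 2.39 in WT (SE 0.19, FDR 1.53e-09) and 2.00 in TSP-1 null livers (SE 0.19, FDR 2.02e-08).

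Gstm6 was the mu gene that moved least. It held 15.9, 21.96, 13.7, 14.8 and 14.8 FPKM in NDWT and 42.4, 26.7, 35.9, 30.4 and 21.3 FPKM in HFWT. In NDKO it held 11.6, 15.0, 11.4, 9.28 and 19.9 FPKM, and in HFKO 23.5, 22.5, 24.1, 27.2 and 18.9 FPKM. In each genotype 1 control-diet liver, NDWT mouse 2 or NDKO mouse 5, lay above 1 CDAHFD liver, mouse 5 of its group. The log2FC of 0.92 in WT (FDR 0.000253) and 0.83 in TSP-1 null livers (FDR 0.000759) was 0.39 and 0.33 above the median gene, and both calls were lost with a median-of-ratios scaling (0.36 and 0.29), the TSP-1 null call also with quantile normalization (0.45).

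Gstp1, the leading GST on control diet, moved the other way. NDWT livers held 1051, 1705, 804, 1205 and 860 FPKM and HFWT livers 1039, 737, 952, 866 and 561 FPKM, with a wide overlap. NDKO livers held 1532, 1591, 1460, 1116 and 1660 FPKM and HFKO livers 702, 769, 747, 921 and 693 FPKM, which did not overlap. It fell in TSP-1 null livers (log2FC -0.94, SE 0.18, FDR 0.000160). In WT the log2FC of -0.42 (SE 0.18, FDR 0.05004) missed both the fold and, narrowly, the FDR needed for a call. Quantile normalization turned the WT value to 0.12 and brought the TSP-1 null value to -0.22, which was not called, while a median-of-ratios scaling gave a called -0.98 in WT.

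Gstt1, the theta enzyme, did not pass the test in either genotype. Its levels were 124, 125, 112, 86.6 and 104 FPKM (NDWT), 95.4, 112, 113, 84.3 and 98.3 (NDKO), 116, 108, 112, 109 and 81.1 (HFWT) and 101, 92.7, 112, 117 and 70.9 (HFKO). All 4 groups overlapped, and the log2FC was -0.07 in WT (95% interval -0.35 to 0.21, FDR 0.657) and -0.04 in TSP-1 null livers (95% interval -0.32 to 0.24, FDR 0.797). Relative to the median gene it was 0.60 and 0.54 lower on the log2 scale, and it was called lower in WT with a median-of-ratios scaling (log2FC -0.63).

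Of the 10 genes, 7 did not overlap between diets in WT, where 56.2% of all tested genes did not, and 7 in TSP-1 null livers, where 57.8% did not. Other scalings bear on the smaller changes. On deposited FPKM, 6412 genes were called higher and 671 lower in WT, against 3299 and 2242 with median-of-ratios scaling and 2514 and 2562 with quantile normalization, and in TSP-1 null livers the numbers were 6088 and 581 against 3225 and 1981 and 2421 and 2186. The rises of Gsta2, Gsta4, Gstm1, Gstm2 and Gstm3 were called in both genotypes under all 3 scalings.

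**Figure D2:**
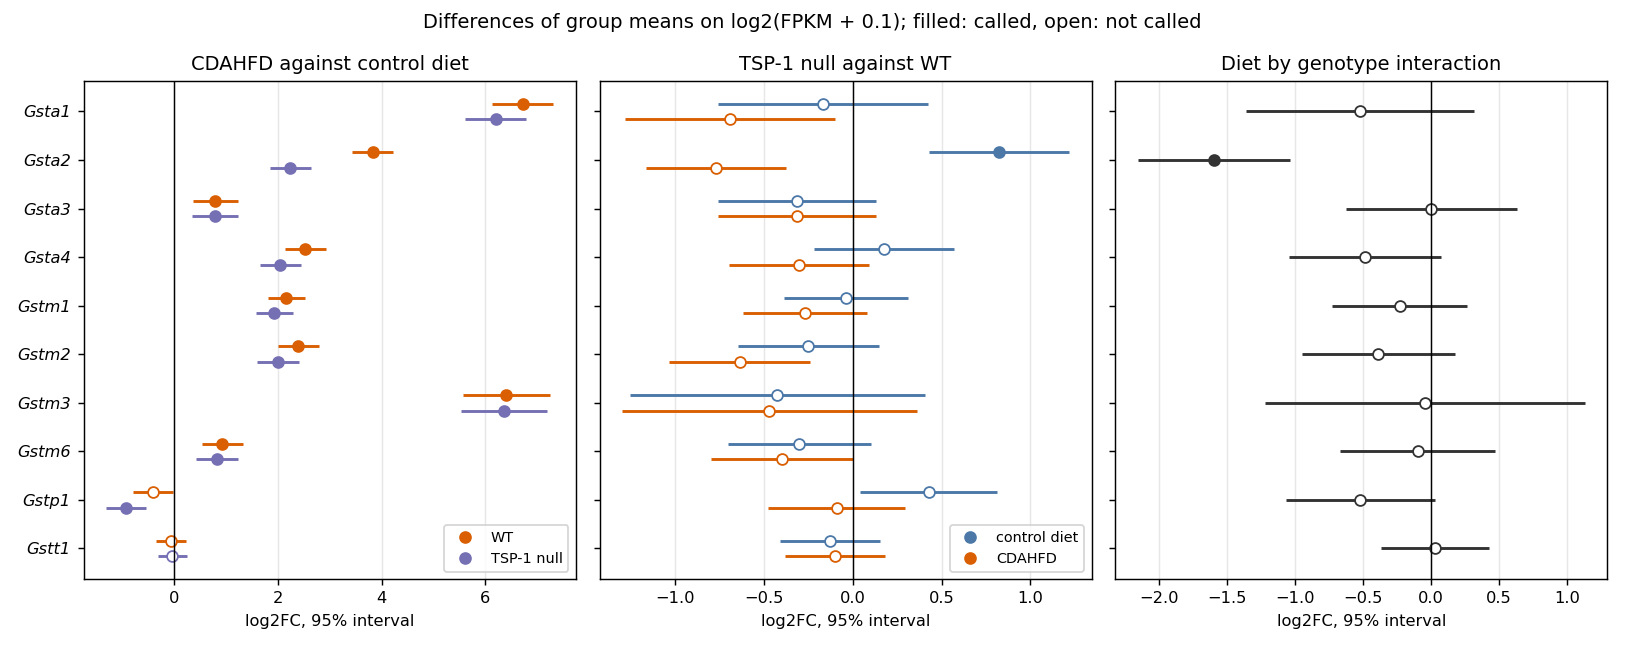
log2FC of each GST gene on log2(FPKM + 0.1), as points with 95% intervals (filled where called, open where not), for the diets in WT and TSP-1 null, for the genotypes on each diet and for the interaction; the horizontal scales differ. The diet values reach 6.41 for Gstm3 in WT, that of Gsta1 (6.72) being a description with no test, the interaction of Gsta2 stands at -1.59, and Gstp1 in WT, at -0.42, turns to 0.12 with quantile normalization.

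The makeup of the summed GST transcript changed with the diet. The 10 genes summed to 1897 ± 459 (NDWT), 2166 ± 347 (NDKO), 3122 ± 638 (HFWT) and 2601 ± 498 FPKM (HFKO). Gstp1 made up 58.5% ± 5.42 of the sum (NDWT) and 68.1% ± 3.20 (NDKO) on control diet, and 26.5% ± 1.96 (HFWT) and 29.9% ± 3.24 (HFKO) on CDAHFD. Its share was between 52.3% and 71.8% in all 10 control-diet livers and between 24.9% and 34.7% in all 10 CDAHFD livers.

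Class mu took the opposite course, from 14.1% ± 1.20 (NDWT) and 11.7% ± 0.301 (NDKO) to 42.6% ± 3.91 (HFWT) and 40.7% ± 1.04 (HFKO). Gstm1 alone held 32.8% to 33.2% of the sum in the 5 HFKO livers although its level there ran from 661 to 1108 FPKM. Class alpha made up 21.3% ± 3.33, 15.5% ± 3.43, 27.5% ± 4.20 and 25.6% ± 2.72 of the NDWT, NDKO, HFWT and HFKO sums, with Gsta3 the larger part of it. The ratio of Gstp1 to Gstm1 within a liver averaged 4.80 ± 0.843 (NDWT) and 6.56 ± 0.386 (NDKO), against 0.799 ± 0.0906 (HFWT) and 0.903 ± 0.0957 (HFKO). These shares and ratios are taken within a library and do not depend on a scaling by 1 factor per library.

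**Figure D3:**
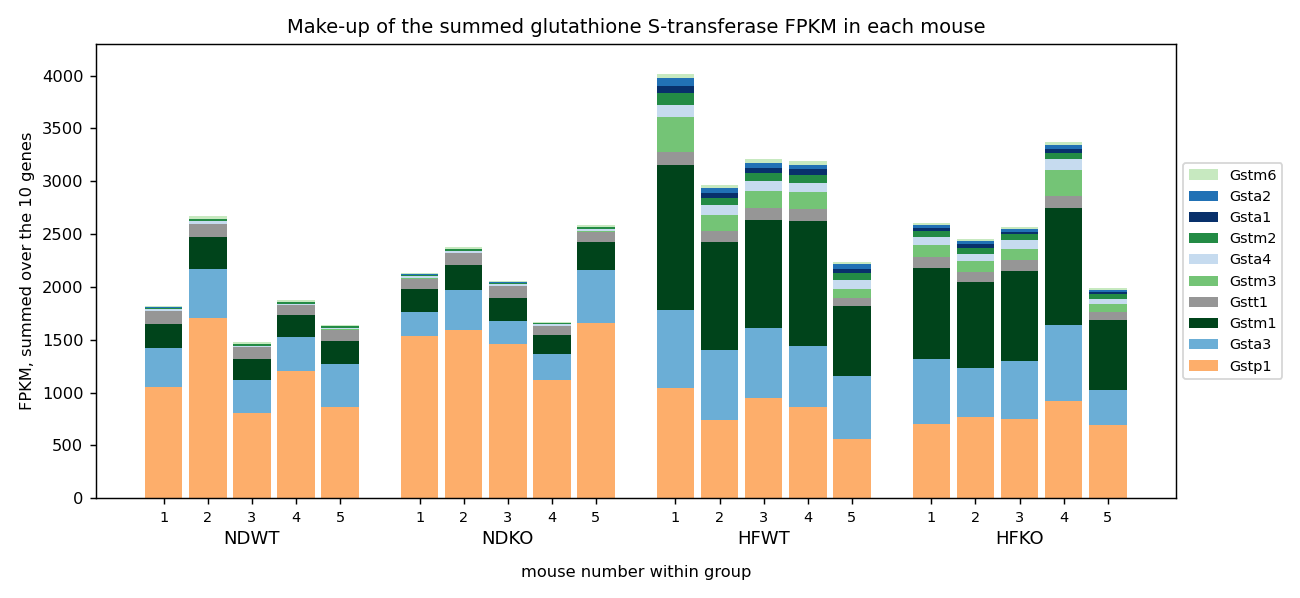
Summed FPKM of the 10 GST genes (vertical axis) in each of the 20 livers, as bars stacked by gene and numbered by mouse within NDWT, NDKO, HFWT and HFKO. Gstp1, at the foot, makes up 52.3% to 71.8% of a control-diet bar and 24.9% to 34.7% of a CDAHFD bar, where Gstm1 makes up 29.4% to 37.2%.

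The genotype comparison on control diet gave 1 call among the 10 genes, Gsta2, where 4.77% of all tested genes were called, 1.74% higher and 3.03% lower. Gsta2 was 1.80 times higher in the livers labelled TSP-1 null (log2FC 0.82, SE 0.19, FDR 0.00737), and the 5 NDKO livers, at 4.45 to 7.53 FPKM, lay above the 5 NDWT livers, at 2.34 to 4.07 FPKM. It was the 1 gene of the 10 whose genotypes did not overlap, as was so for 9.03% of all tested genes. Gstp1 had a log2FC of 0.43 (FDR 0.137), which became a call (0.59, FDR 0.0263) when NDWT mouse 2, the highest of its group at 1705 FPKM, was left out. The other 8 log2FC ran from -0.43 for Gstm3 to 0.18 for Gsta4 and none was called.

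On CDAHFD none of the 10 genes was called between genotypes, where 0.496% of all tested genes were, 0.165% higher and 0.330% lower. All 10 log2FC were below 0, with a median of -0.36 against -0.10 for all tested genes, and the sign of the smallest, Gstp1 (-0.09) and Gstt1 (-0.10), turned with a median-of-ratios scaling. Gsta2 had a log2FC of -0.77 (95% interval -1.17 to -0.38, FDR 0.0529) and Gstm2 one of -0.64 (FDR 0.101), and both had groups that did not overlap, as did 4.98% of tested genes. Gsta1 stood at -0.69 (FDR 0.215). These 3 genes had an unadjusted p below 0.05 (0.000630, 0.00324 and 0.0237), and limma with voom weights on the fragments recovered from the FPKM values called all 3 lower in the livers labelled TSP-1 null. That fit called 132 of the 14524 genes, 38 higher and 94 lower, against 72 in the main fit.

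Gsta2 was also the 1 gene of the 10 whose response to the diet differed between the genotypes, where 0.647% of tested genes did, 0.337% with a value above 0 and 0.310% below. Its interaction log2FC was -1.59 (SE 0.27, 95% interval -2.15 to -1.04, FDR 0.0104), the difference between the diet log2FC of 2.23 in TSP-1 null livers and 3.83 in WT. Both the higher control-diet level and the lower CDAHFD level of the livers labelled TSP-1 null enter that value. The interaction of Gsta1 was -0.52 (FDR 0.583) and that of Gstp1 -0.52 (FDR 0.360), and the remaining 7 lay between -0.48 for Gsta4 and 0.03 for Gstt1. An interaction that misses the threshold does not show that the diet response was alike.

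Some mice stood above or below their group for most of the 10 genes. HFWT mouse 1 had the highest level of all 10 genes in its group, HFKO mouse 4 the highest of all 10 and HFKO mouse 5 the lowest of all 10, while HFWT mouse 5 was lowest for 8 and NDWT mouse 2 highest for 8. Over all 14524 tested genes these mice held the same place for 35.1%, 22.2%, 13.9%, 39.8% and 25.5% of genes. The median deviation of the 10 genes from the group mean was 0.45 on the log2 scale for HFWT mouse 1, 0.40 for HFKO mouse 4, -0.40 for HFKO mouse 5, -0.38 for HFWT mouse 5 and 0.38 for NDWT mouse 2. The NDKO mice were less uniform, with mouse 5 highest for 7 genes, mouse 4 lowest for 5, and mouse 3 highest for 2 and lowest for 3. Of the 16 other tested GST genes described below, HFKO mouse 5 was lowest for 10, HFKO mouse 4 highest for 8, HFWT mouse 5 lowest for 8, HFWT mouse 1 highest for 5 and NDWT mouse 2 highest for 4.

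Cell markers had no 1 order across these mice. HFKO mouse 5 had the lowest hepatocyte sum of its group (38168 FPKM) and the highest macrophage sum (1406 FPKM), with 8 of 10 macrophage and 8 of 10 lymphocyte markers at their highest. Over all tested genes this mouse was the highest of its group for 40.5%. HFKO mouse 4 had the highest hepatocyte sum (49565 FPKM) and the lowest macrophage sum (640 FPKM), though it was highest for 2 and lowest for 4 of the 11 hepatocyte markers. HFWT mouse 5, lowest for 8 GST genes, had the lowest macrophage sum of its group too (1014 FPKM) beside a hepatocyte sum of 39673 FPKM, and NDWT mouse 2 had a hepatocyte sum of 43608 FPKM, within its group's range. HFWT mouse 1, the highest for all 10 GST genes, had instead the lowest hepatocyte sum of its group (29994 FPKM), with 6 of 9 tested cholangiocyte and 8 of 11 stellate markers at their highest. Of all tested genes 35.1% were at their highest in this mouse. The part of these differences in the GST levels was not tested.

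**Figure D4:**
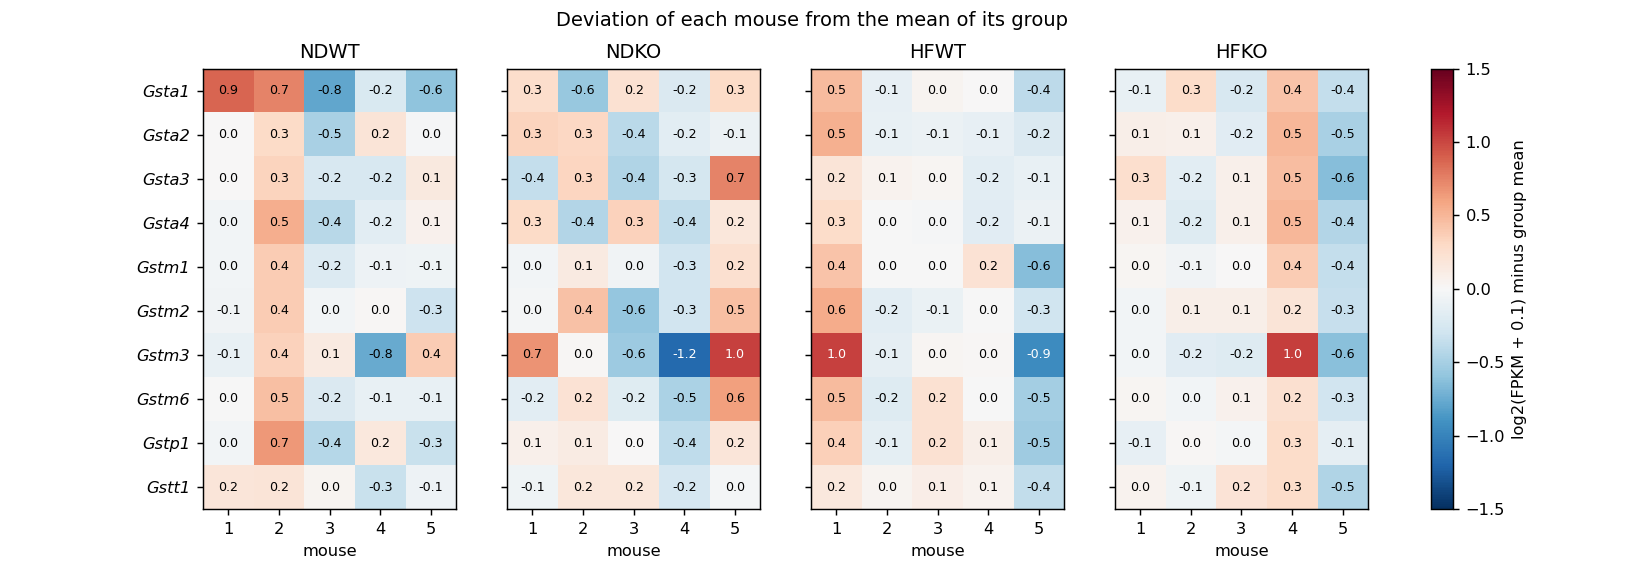
Deviation of each GST gene (rows) in each mouse (columns) from the mean of its group, as the difference in log2(FPKM + 0.1) printed in the cell and shown by colour, red above and blue below the mean. HFWT mouse 1 and HFKO mouse 4 are above the mean for all 10 genes and HFKO mouse 5 is below it for all 10, with medians of 0.45, 0.40 and -0.40.

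Among 16 other tested glutathione transferase genes and their membrane-bound relatives (the MAPEG family), 9 rose and 1 fell on CDAHFD in WT, with a median log2FC of 0.86, and the same numbers rose and fell in TSP-1 null livers, with a median of 0.78. These counts, and those of the groups that follow, stand beside the 44.1% (WT) and 41.9% (TSP-1 null) of all tested genes called higher. With median-of-ratios scaling 5 of the 16 were called higher and 4 lower in WT, 5 and 5 being the numbers for TSP-1 null, and with quantile normalization the medians were -0.0041 and 0.0089. Hpgds, a sigma class enzyme that makes prostaglandin D2 in immune cells, rose from 0.301 ± 0.0736 FPKM in NDWT to 5.34 ± 0.933 in HFWT (log2FC 3.76). Its NDWT mean lay below the filter of 0.5 FPKM, so that this value is, as for Gsta1, a description with no test. The same holds for Gm10639, Slc7a11, Abcc1 and Cyp2b9 below, which are counted where called. Alox5ap, the partner of 5-lipoxygenase in leukocytes, rose from 4.11 to 33.6 FPKM (log2FC 2.99) and Mgst3 from 3.33 to 22.3 FPKM (log2FC 2.72).

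Gm10639, the alpha class gene that shares transcript sequence with Gsta1, was close to 0 on control diet (0 to 2 fragments per library) and measured 3.64 ± 0.899 FPKM in HFWT and 2.90 ± 0.564 in HFKO. The mu genes Gstm5 (log2FC 1.37 and 1.49 in WT and TSP-1 null livers) and Gstm4 (0.89 and 0.97) rose, the latter call being lost with median-of-ratios scaling (0.33 and 0.44), and Gstm7 did not pass (0.28 and 0.14). Gstk1, the mitochondrial and peroxisomal kappa enzyme, fell from 99.7 to 61.1 FPKM in WT (log2FC -0.70, FDR 6.16e-07) and from 94.5 to 59.2 in TSP-1 null livers. Mgst1, at 1029 ± 67.4 FPKM in NDWT and 732 ± 66.6 in HFWT, had a log2FC of -0.49 and, like Gstz1 (-0.38), was under the fold needed for a call. On deposited FPKM no gene of the 16 was called in a genotype or interaction comparison.

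Enzymes that make and recycle glutathione were counted next. Of 15 tested, 8 rose and none fell in WT, and 8 rose and 1 fell in TSP-1 null livers. Pgd and G6pdx, which supply NADPH for glutathione reduction, rose from 3.73 to 21.1 FPKM (log2FC 2.46, FDR 1.07e-12) and from 2.29 to 11.2 FPKM (log2FC 2.24) in WT, and Gss, the final enzyme of synthesis, rose from 9.19 to 23.8 FPKM (log2FC 1.37). Slc7a11, the cystine importer, was at 0 to 3 fragments in every control-diet library and averaged 0.698 FPKM in HFWT and 0.561 in HFKO. With median-of-ratios scaling the counts became 5 higher and 4 lower in WT and 5 higher and 3 lower in TSP-1 null livers.

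On control diet, 2 genes of this group were called between genotypes, in opposite directions. Cth, which makes cysteine from cystathionine, was higher in the livers labelled TSP-1 null (333 ± 122 against 138 ± 40.6 FPKM, log2FC 1.25, FDR 0.00126). Gclc, the catalytic subunit of the rate-limiting enzyme of glutathione synthesis, was lower there (63.0 ± 18.8 against 106 ± 10.7 FPKM, log2FC -0.79, FDR 0.00199). Gclc rose on CDAHFD in TSP-1 null livers (log2FC 0.84, lost with median-of-ratios scaling at 0.31) and had a log2FC of 0.27 in WT.

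Of 8 glutathione peroxidase genes, Prdx6 included, 5 rose and 1 fell in WT and 5 rose in TSP-1 null livers. With median-of-ratios scaling 4 were called higher and 1 lower in each genotype, and with quantile normalization 5 higher and 2 lower in WT. Gpx3, the secreted form, rose from 2.93 to 31.5 FPKM in WT (log2FC 3.36) and Gpx7 from 0.799 to 6.61 FPKM (log2FC 2.94). Of 21 genes for conjugate breakdown and export, 9 rose and 2 fell in WT and 11 rose and 1 fell in TSP-1 null livers. The conjugate pump Abcc1 rose from 0.302 to 2.62 FPKM in WT (log2FC 2.76) and Abcc5 from 0.919 to 4.91 FPKM (log2FC 2.29). With median-of-ratios scaling the export and breakdown counts became 8 higher and 4 lower in WT and 6 higher and 3 lower in TSP-1 null livers. Abcg2 fell in WT (log2FC -0.63) and was lower in NDKO than in NDWT (15.3 against 24.5 FPKM, log2FC -0.68, FDR 8.05e-05, not called with quantile normalization).

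Of 22 other NRF2 targets, 16 rose and 1 fell in WT and 18 rose and 1 fell in TSP-1 null livers, with median log2FC of 1.02 and 1.12. With median-of-ratios scaling 9 and 11 rose and 1 fell in each, where 3299 and 3225 of all tested genes rose. With quantile normalization 17 rose and 1 fell in each, where 2514 and 2421 of all tested genes rose. Nqo1, a quinone reductase, rose from 1.51 to 13.5 FPKM in WT (log2FC 3.10, FDR 1.28e-10) and from 1.83 to 9.80 in TSP-1 null livers (log2FC 2.44). Cbr3, a carbonyl reductase, rose from 0.509 to 8.87 FPKM in WT (log2FC 3.87), and Srxn1, which repairs peroxiredoxins, from 15.1 to 60.7 FPKM (log2FC 2.00). On control diet Cbr1 (log2FC 0.59) was higher and Osgin1 (log2FC -1.22, FDR 0.00286) and Akr1b8 (log2FC -0.67, not called with quantile normalization) were lower in the livers labelled TSP-1 null.

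Of 13 targets of CAR, PXR and AHR, 8 rose and 3 fell in WT and 8 rose and 4 fell in TSP-1 null livers, or 6 and 5 and 5 and 5 with median-of-ratios scaling. Its genes went both ways: Cyp2b9, a CAR target, rose from 0.185 to 8.17 FPKM in WT (log2FC 4.49) and Cyp3a11, a PXR target, from 264 to 939 FPKM (log2FC 1.83), whereas Cyp2c29, another CAR target, fell from 106 to 13.6 FPKM (log2FC -3.13). On control diet Cyp1a1 (log2FC 0.95) and Por (log2FC 0.81) were higher and Tiparp (log2FC -0.63) lower in the livers labelled TSP-1 null, the last lost with median-of-ratios scaling. On deposited FPKM none of the genes of these 5 groups was called between genotypes on CDAHFD or in the interaction. With median-of-ratios scaling the interaction was called for Acy3 (0.58), of the conjugate group, and Osgin1 (1.42), of the NRF2 group, the former named after its values were seen.

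The regulators were counted last. Of 16 tested, 4 rose and 1 fell in each genotype, their log2FC having medians of -0.02 (WT) and 0.16 (TSP-1 null), and with median-of-ratios scaling 3 were called higher and 8 lower in WT and 2 higher and 7 lower in TSP-1 null livers. Nfe2l2, which encodes NRF2, measured 18.4 ± 2.53 (NDWT), 11.4 ± 1.21 (NDKO), 31.7 ± 2.09 (HFWT) and 23.3 ± 1.31 FPKM (HFKO). It was lower in the control-diet livers labelled TSP-1 null (log2FC -0.69, FDR 8.05e-05). On CDAHFD it rose in both genotypes (log2FC 0.79 and 1.04), a rise that was not called with median-of-ratios scaling (0.23 and 0.50). The interaction value of Nfe2l2 was 0.25 (FDR 0.360), and its part in the GST levels was not tested.

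The small Maf partner Mafk rose in both genotypes (log2FC 1.15 and 1.30), as did Maff (from 2.66 to 7.63 FPKM in WT and from 1.12 to 7.83 in TSP-1 null livers), which was lower on control diet in the livers labelled TSP-1 null (log2FC -1.24). Keap1, the inhibitor of NRF2, had values of 0.25 (WT) and 0.28 (TSP-1 null) and was not called. Ahr rose from 5.05 to 13.2 FPKM in WT (log2FC 1.39), and was higher on control diet in the livers labelled TSP-1 null (8.35 FPKM, log2FC 0.71). Ppara, the fatty acid receptor, fell from 76.6 to 32.9 FPKM in WT (log2FC -1.22), and the CAR gene Nr1i3 (-0.28 and -0.50) and Hnf4a (-0.14 and -0.42) were not called.

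**Figure D5:**
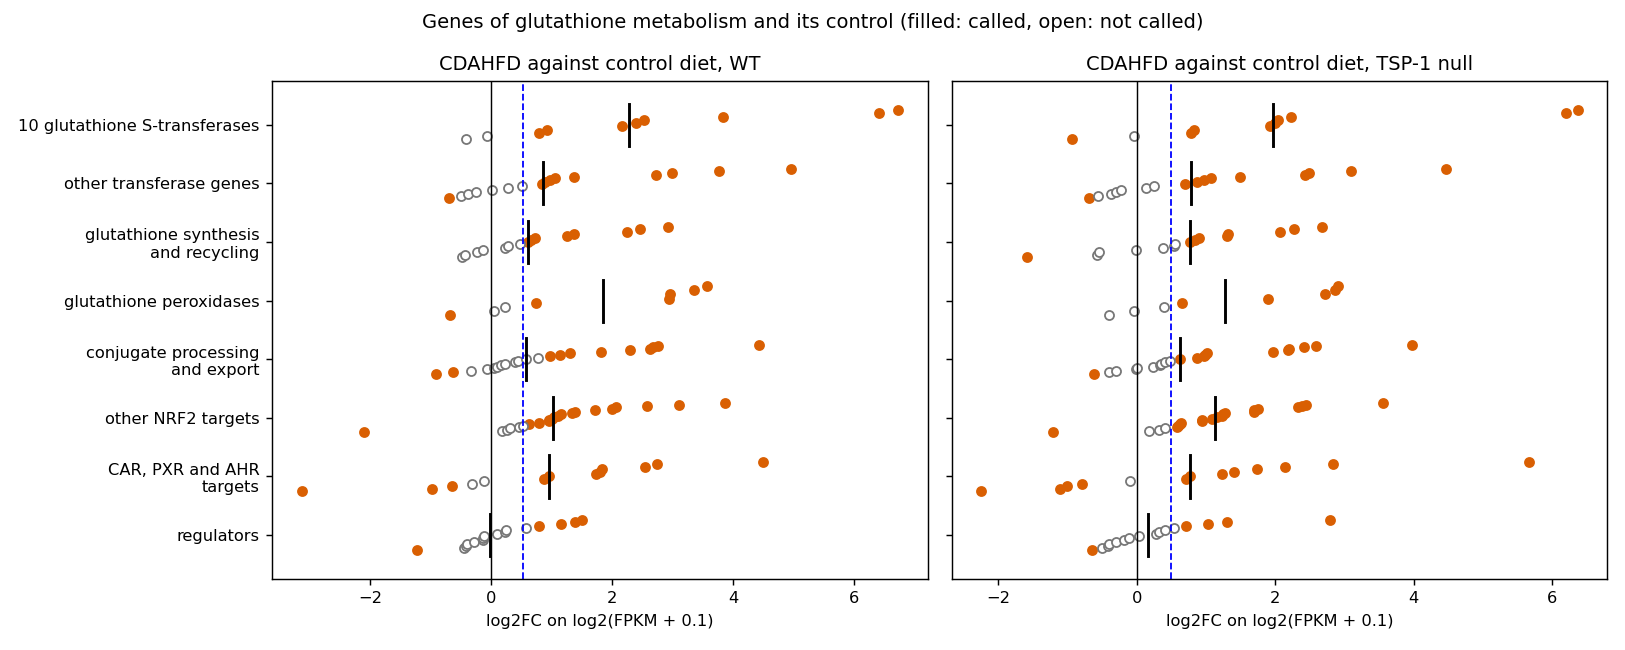
Diet log2FC on log2(FPKM + 0.1) in WT (left) and TSP-1 null livers (right) for the 10 GST genes and 7 other gene groups, with 1 point per gene, filled where called, a black bar at the median of the group and a dashed line at the median of all tested genes. Medians are 2.27 and 1.96 for the 10 GST genes, 1.02 and 1.12 for the other NRF2 targets, -0.02 and 0.16 for the regulators and 0.53 and 0.50 for all tested genes.

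Genes with the most alike course were found for each GST gene by the root mean square difference of their log2 levels over the 20 libraries, after each was centred on its own mean. Gstt1 (Tuba4a, 0.131) and Gstm6 (Cyp1a2, 0.155, and Gulo, 0.169) had the closest neighbours, and Gsta1 and Gstm3 the most distant, both led by Adam8 (0.7096 and 0.755). Krt8, a keratin of hepatocytes and bile duct cells, was first for both Gstm1 (0.248) and Gstm2 (0.297), Emp2 first for Gsta2 (0.384), Pdgfc for Gsta4 (0.266), Fam149a for Gsta3 (0.207) and Dcxr for Gstp1 (0.238). Clec4d (0.712) for Gsta1 and Itgax (0.761) for Gstm3 are, like Adam8, best known from myeloid cells. The measure takes in the step between the diets, which was large in all of these genes. The cells that the GST transcripts came from were not tested. Among the 10 genes themselves the closest pairs were Gsta3 and Gstm6 (0.216), Gstm1 and Gstm2 (0.262) and Gsta4 and Gstm1 (0.284), and Gsta1 was nearest to Gstm3 (0.605).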

How the data were processed

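Poly(A) RNA of 20 mouse livers was prepared with a directional kit and sequenced on an Illumina HiSeq instrument in paired-end mode. The authors aligned the reads with STAR (2.5.2) and counted them per gene with featureCounts (Subread 1.5.1), per the labels, and deposited FPKM values for every gene and library, which are the only values used. The submitters' notes name the human build GRCh38, but the deposited coordinates lie on GRCm38, where 99.8% of 37607 gene identifiers overlapped GENCODE M21. FPKM times gene length gave whole fragments for at least 99.99% of values per library (within 0.05 fragments), so depth is known. How reads matching several genes were assigned is not given in the sources used here.

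Genes above 0.5 FPKM in at least 5 libraries were tested with limma (3.58.1, R 4.3.3) on log2(FPKM + 0.1), with all 20 libraries in 1 fit of 4 group means. Tests are two-sided, with Benjamini-Hochberg adjustment over 14524 genes per comparison. A fold change on this scale understates the change of low genes. The fit was tested on simulated data. The 10 genes, the gene lists and the tests were chosen with earlier results of these data known. Named genes were the 10 GST genes, Thbs1, all other GST genes and regulators, and at most 6 called genes of lowest FDR per other list. Gsta5, Gsta13, Gm3776, Gstp3 and Nat8f1 were not analysed here, nor was Mafg, which is on 2 rows. The tissue block is called the right medial lobe in the series text and the right lateral lobe in the methods. Each library is 1 mouse, and replicate numbers do not pair mice. Alternatives were 13 other settings and leaving out each of 20 libraries.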

Additional observations from a re-analysis of the deposited data

Results flagged for a closer look

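In 6 of the 40 combinations of gene and group, 1 of the 5 mice stood farther from the nearest other mouse than Dixon's 95% limit allows. Chance alone marks about 1 in 20 such groups. These were Gsta2 in HFWT (mouse 1, 70.1 FPKM, highest), Gstm2 in HFWT (mouse 1, 118 FPKM, highest), Gstm3 in HFKO (mouse 4, 242 FPKM, highest), Gstm1 in NDWT (mouse 2, 297 FPKM, highest), Gstm6 in NDWT (mouse 2, 21.96 FPKM, highest) and Gstt1 in HFWT (mouse 5, 81.1 FPKM, lowest). The same mice were at the top or bottom of their group for most of the 10 genes.

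The diet effect on Gsta2 differed between the genotypes as labelled, with an interaction log2FC of -1.59 from the test of the difference itself.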

How the results depend on the processing

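Each of 50 values (10 genes in 5 comparisons) was recomputed under 13 settings and without each of the 20 libraries, except that the 10 interaction values could not be had from only the 2 groups compared. Of 1640 recomputed values, 1580 kept direction and call, 21 gained or lost a call and 39 changed sign, none of them called either way. The calls of Gsta2 on control diet and in the interaction were kept throughout, the latter between -1.72 and -1.46 without any 1 library. Between genotypes on control diet, leaving out 1 library gave 1 to 2 called genes of the 10, beside 539 to 776 of all 14524 tested genes.

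Between genotypes on CDAHFD, where no gene of the 10 was called, a pseudocount of 1 gave 2 calls (Gsta1 and Gsta2), a mean FPKM above 0.5 gave 1, quantile normalization 1, voom 3, and leaving out 1 library 0 to 1, Gsta2 each time (NDWT mouse 2 or 3, NDKO mouse 3 or HFKO mouse 4). Of all tested genes these settings called 79, 75 (of 13444), 104 and 132, and 38 to 83 without those 4 mice, against 72 in the main fit. The replicate block also gave 1 call among the 10 (Gsta2, FDR 0.0283), beside 61 of all tested genes. Same-numbered mice did not deviate together (r -0.133 to 0.0812 over 30 pairs), so the numbers do not pair them. The cause was not tested. Signs turned for Gstp1 on CDAHFD in WT (0.12, quantile), Gstm1 by genotype on control diet (0.037, median of ratios, and 0.013, quantile), Gstt1 (0.00031) and Gstp1 (0.0097) by genotype on CDAHFD (median of ratios), and the Gsta3 interaction (0.026, median of ratios, and 0.00022, voom).

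Leaving out 1 library gave ranges across 0 for Gstt1 by diet in WT (-0.15 to 0.022) and TSP-1 null (-0.11 to 0.073), by genotype on CDAHFD (-0.19 to 0.013) and in the interaction (-0.063 to 0.14), for Gstm1 (-0.099 to 0.055) and Gsta1 (-0.36 to 0.048) by genotype on control diet, and for the interactions of Gstm3 (-0.34 to 0.21), Gsta3 (-0.12 to 0.19) and Gstm6 (-0.23 to 0.055). Depth limits Gsta1 on control diet, at 3 to 17 fragments per library.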
